A study of Bos taurus with 10 samples.

Results

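Blood cells were set apart from the other cattle tissues at 893 autosomal CG sites in these reduced representation bisulfite sequencing (RRBS) data. A site is here the cytosine of a CG on 1 strand. Of 468619 such cytosines read in at least 1 library, 76967 were autosomal and had 8 or more reads in every library except that of the abomasum. Among these 76967 sites, 215 (0.279 %) had a methylation level in blood at least 20 points below each of 7 tissues, and 678 (0.881 %) had a level at least 20 points above each of them. The 7 tissues were skeletal muscle, mammary parenchyma, uterus, frontal cortex, ileum, rumen and the lactating mammary gland. Testis and abomasum took no part in the choice and are given beside the others. The levels of blood and of the 7 tissues chose the sites, so the differences between them are a description and were not tested at the sites themselves.

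The study profiled 10 diverse tissues, 1 library each, from a Hereford cow and relatives of it, with no treatment. Nucleated blood cells, skeletal muscle taken near a cesarean, the intercaruncular uterus and the mammary gland on day 90 of lactation came from adult females. Mammary parenchyma, frontal cortex, ileum and abomasum came from juvenile females, the rumen from a male fetus and the whole testes from an adult male. Sex therefore differs from that of blood in rumen and testis alone, and stage in mammary parenchyma, frontal cortex, ileum, abomasum and rumen. Which animal gave each library is not stated. Where they differ, sex, stage and animal cannot be told apart from tissue. In RRBS the DNA is cut at CCGG by MspI and treated with bisulfite, which leaves methylated cytosines unchanged and converts the others, so that the share of reads keeping a cytosine is its methylation level. Reads summed over cytosines ran from 16125651 in abomasum to 40089443 in testis. The median over the 76967 sites was 40 reads in blood and between 29 and 44 in the 7 tissues.

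Methylation of CG in vertebrates sits on both strands, and a maintenance methyltransferase copies it to the new strand when the DNA is replicated. CG-rich stretches are mostly free of methylation, while most other CGs carry it, and the stretches that depart from this differ between cell types. Mature red cells of mammals have no nucleus, so that the nucleated cells of blood are lymphocytes, monocytes, granulocytes and other white cells. A level between 0 and 100 % in such a mixture, or in any whole tissue, does not show whether every cell is partly methylated or some cells are fully methylated. The label of the blood library could not be checked against marker genes, because gene positions on the build of the files, UMD3.1, were not used here. Gene names are not given for the same reason.

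The sites lay in clusters, in which each site was at most 200 bp from the next of the same direction. The 5 clusters with most CGs in each direction, ties going to the larger mean gap, are named below, and 7 of these 10 are shown as reference sequence read from the deposited sequence strings around each cytosine, on the forward strand of UMD3.1, with the CGs that met the rule in capitals. The first 3 carry sites lower in blood and are shown because blood was nearly free of methylation (chromosome 29), because testis shared part of the low level (chromosome 28), and because testis and cortex stood highest (chromosome 11).
chr29:44484484-44484573: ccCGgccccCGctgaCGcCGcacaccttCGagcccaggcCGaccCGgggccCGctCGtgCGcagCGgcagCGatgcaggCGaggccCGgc
chr28:44058363-44058410: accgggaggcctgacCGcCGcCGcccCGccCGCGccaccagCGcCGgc
chr11:101128501-101128551: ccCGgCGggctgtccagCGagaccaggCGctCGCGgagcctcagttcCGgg
The next 4 carry sites higher in blood. They are the cluster with most CGs (chromosome 19), a pair on chromosome 4 that lay 3699 bp apart, and a cluster on chromosome 11 at which frontal cortex was almost unmethylated.
chr19:51542546-51542682: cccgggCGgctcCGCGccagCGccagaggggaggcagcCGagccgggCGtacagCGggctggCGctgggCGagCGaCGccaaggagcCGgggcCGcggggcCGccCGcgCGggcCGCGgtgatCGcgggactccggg
chr4:69357582-69357674: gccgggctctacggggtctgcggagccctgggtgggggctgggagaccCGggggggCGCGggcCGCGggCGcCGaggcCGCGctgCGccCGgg
chr4:69353887-69353933: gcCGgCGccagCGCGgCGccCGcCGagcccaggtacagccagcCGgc
chr11:78270558-78270603: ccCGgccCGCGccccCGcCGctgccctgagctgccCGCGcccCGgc
Each of these runs starts and ends at or beside a CCGG, where the enzyme cuts. The GC content of the 7 runs ranged from 76.5 % on chromosome 11 in the lower set to 91.3 % on chromosome 11 in the higher set.

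At the 215 sites lower in blood, the median level of blood was 18.5 %. The median was 62.9 % in uterus, 69.7 % in ileum and 73.9 % in mammary parenchyma. It was 76.7 % in the lactating gland, 78.1 % in skeletal muscle and 85.4 % in both rumen and frontal cortex. Most of these sites were thus methylated in the solid tissues and poorly methylated in blood. Blood was below 20 % at 110 sites (51.2 %) and had no methylated read at 24. All 7 tissues were above 80 % at 25 sites, but at 0 of the 215 sites was blood below 20 % with all 7 tissues above 80 %. The gap, which is the distance in points between blood and the nearest of the 7 tissues, had a median of 31.8 points and a highest value of 61.6. It was at least 30 points at 122 sites and under 25 points at 47. The last sites inside the rule had gaps of 20, 20.1 and 20.2 points and the first outside it 19.9, 19.7 and 19.6. A further 76 sites lay between 15 and 20 points.

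At the 678 sites higher in blood, the median level of blood was 83.1 %. Ileum had a median of 43.3 % and uterus of 41.7 %. The other tissues were lower, at 25.4 % in skeletal muscle, 17.4 % in the lactating gland, 16.8 % in frontal cortex, 15.8 % in mammary parenchyma and 10.0 % in rumen. Blood exceeded 80 % at 353 sites (52.1 %) and was fully methylated at 74. All 7 tissues were below 20 % at 103 sites, and again 0 sites joined a blood level above 80 % with all 7 tissues below 20 %. Gaps were smaller than at the lower sites, with a median of 25.5 points. They reached 69.7 points, were at least 30 points at 199 sites and were under 25 points at 309. Just inside the rule 3 sites had gaps of 20 points and just outside it 19.99, 19.94 and 19.93 points, and 621 further sites lay between 15 and 20 points. The higher sites were thus more numerous than the lower ones but lay closer to the limit of the rule. More sites had room to be higher. The higher sites made up 1.18 % of the 57408 sites with all 7 tissues at 80 % or less. The lower sites made up 0.993 % of the 21660 sites with all 7 tissues at 20 % or more.

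**Figure D1:**
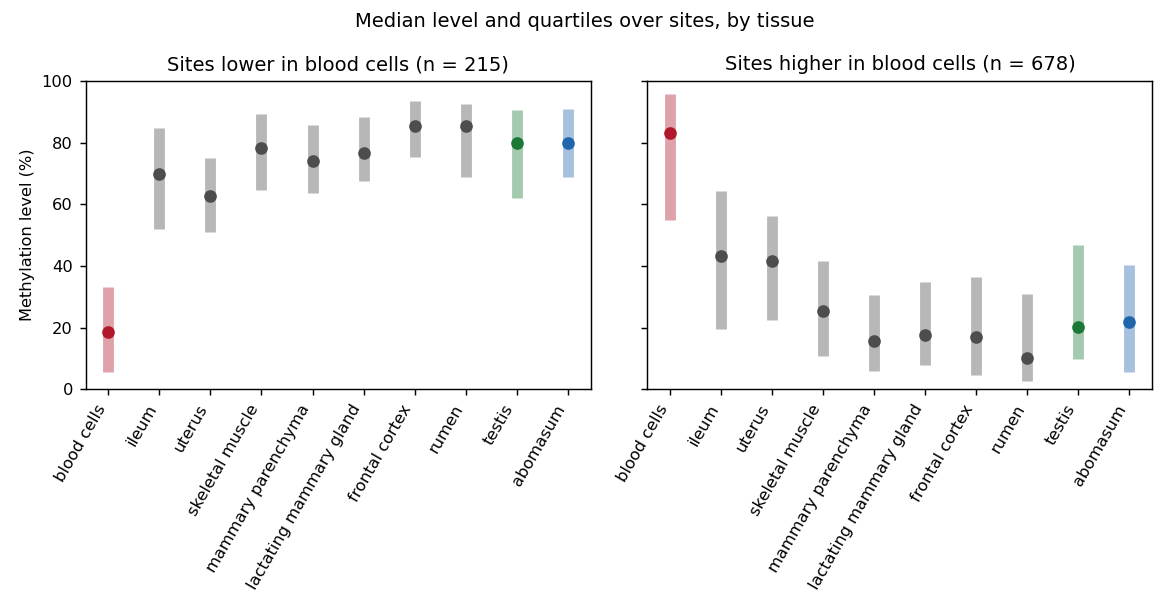
Methylation level (%) in each of the 10 tissues at the sites lower (left, 215) and higher (right, 678) in blood cells. Points are medians over sites and bars run from the lower to the upper quartile, with abomasum read at 162 and 443 of the sites. Ileum and uterus stood nearest to blood on both sides. The medians of testis and abomasum lay among those of the 7 tissues. Site by site, testis was inside the range of the 7 tissues at 137 of 215 lower and 486 of 678 higher sites. Abomasum was inside it at 124 of 162 and 341 of 443.

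The same rule was applied with each of the 7 tissues in the place of blood, as a description of how often a tissue stood apart. Each mammary library then had to differ from the other mammary library too, whereas blood had no second library of its kind. Skeletal muscle had 431 lower and 263 higher sites, frontal cortex 412 and 182, the lactating gland 386 and 170, and rumen 333 and 32. Mammary parenchyma had 221 lower and 49 higher sites, ileum 65 and 132, and uterus 14 and 33. The number of higher sites was thus largest in blood among these 8 libraries, while 5 tissues had more lower sites than blood. The mean level over all 76967 sites was also highest in blood, at 29.5 %, against 24.99 to 27.7 % in the 7 tissues.

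The 7 tissues did not stand equally far from blood. Uterus was the nearest at 73 of the 215 lower sites (34.0 %) and ileum at 46 (21.4 %). At the 678 higher sites the order was turned, with ileum nearest at 283 (41.7 %) and uterus at 222 (32.7 %). Frontal cortex was nearest at 12 and 32 sites and rumen at 16 and 23. Conversely, the tissue farthest from blood was frontal cortex at 62 and rumen at 58 of the lower sites, and rumen at 227 and frontal cortex at 133 of the higher sites. Neighbours in the order of medians often overlapped: at the lower sites the quartiles were 51.2 to 75 % in uterus and 51.9 to 84.6 % in ileum, and at the higher sites 22.6 to 56.2 % in uterus and 19.6 to 64.3 % in ileum. Counted over clusters with 3 or more CGs, ileum was nearest in 43 and uterus in 17 of 70 higher clusters, and uterus in 8 and ileum in 7 of 24 lower clusters. Each tissue is 1 library, so that this order is one of libraries.

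The lower sites gathered in few places. They formed 53 clusters on 21 chromosomes, covering 166 CGs. The 24 clusters with 3 or more CGs held 179 of the 215 sites (83.3 %), and the 5 with most CGs held 78 (36.3 %). The higher sites were more scattered, with 281 clusters on all 29 autosomes and 595 CGs. Their 70 clusters with 3 or more CGs held 405 of the 678 sites (59.7 %) and the first 5 held 83 (12.2 %). Clusters of 1 CG numbered 25 among the lower and 158 among the higher. The median span of the clusters with 3 or more CGs was 35 bp in the lower and 35.5 bp in the higher set. In 0 clusters did a site of the other direction lie among the members. Sites of a cluster share reads and are not independent of each other.

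**Figure D2:**
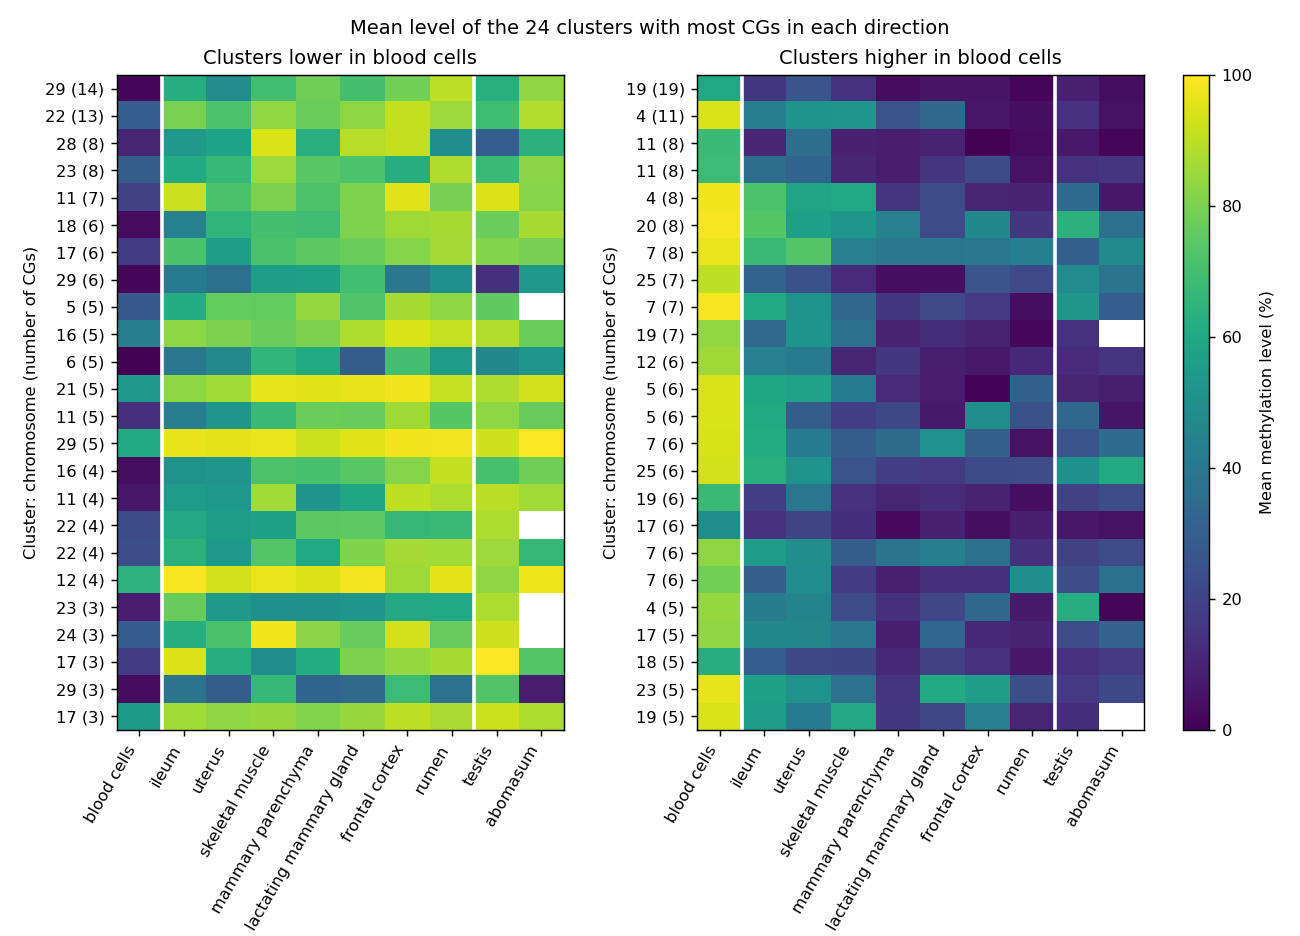
Mean methylation level (%) over the sites of a cluster, by colour, for the 24 clusters with most CGs in each direction (rows, named by chromosome with the number of CGs) in each tissue (columns). Blood cells form the first column and testis and abomasum the last, and white squares mark clusters without a site of 8 reads in abomasum. In the chromosome 29 cluster at the top left blood stood at 1.88 % and the 7 tissues between 48.4 and 90.1 %.

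Blood was nearly free of methylation across the largest lower cluster, chr29:44484486-44484571, where 14 CGs and 25 sites met the rule and every one of the 25 sites read there was a member. Mean levels were 1.88 % in blood, 48.4 % in uterus, 62.4 % in ileum, 69.9 % in skeletal muscle and 70.4 % in the lactating gland. They were 78.4 % in mammary parenchyma, 79.2 % in frontal cortex and 90.1 % in rumen. No site of blood exceeded 7.89 %, while the lowest single site of the 7 tissues stood at 34.1 % in ileum, so that blood and the tissues did not overlap anywhere in the cluster. Testis had 62.8 % and abomasum 83.3 %.

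The other large lower clusters kept more methylation in blood. At chr22:59967322-59967574, with 13 CGs in a pair of stretches, blood had 29.95 %, uterus 71.7 %, testis 69.0 % and the 6 other tissues of the rule 77.4 to 90.9 %. At chr23:51055795-51055837, with 8 CGs, blood had 29.6 %, ileum 61.1 %, frontal cortex 62.5 % and rumen 88.2 %. Here frontal cortex was among the tissues closest to blood, unlike at most lower sites. At chr11:101128503-101128549, with 7 CGs, blood had 19.6 % and uterus 71.4 %, whereas ileum had 91.9 %, frontal cortex 95 % and testis 94.9 %. Sites of blood in that cluster ranged from 2.56 to 46.2 %. Ileum was thus among the farthest tissues in this cluster, although it was often the nearest elsewhere.

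The cluster chr28:44058378-44058408, with 8 CGs and 15 sites, split the solid tissues. Blood had 10.2 %, rumen 49.0 %, ileum 54.0 %, uterus 58.2 % and mammary parenchyma 62.5 %. The lactating gland had 89.1 %, frontal cortex 90.7 % and skeletal muscle 94.2 %. Testis, at 30.04 %, lay between blood and the 7 tissues, and at 13 of the 15 sites it was nearer to blood than to their median. Abomasum had 64.3 %. At another cluster on chromosome 29, chr29:46571684-46571838 with 6 CGs, the mean was 1.22 % in blood, 13.4 % in testis and 36.9 to 69.9 % in the 7 tissues, so that testis was again the closest to blood.

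**Figure D3:**
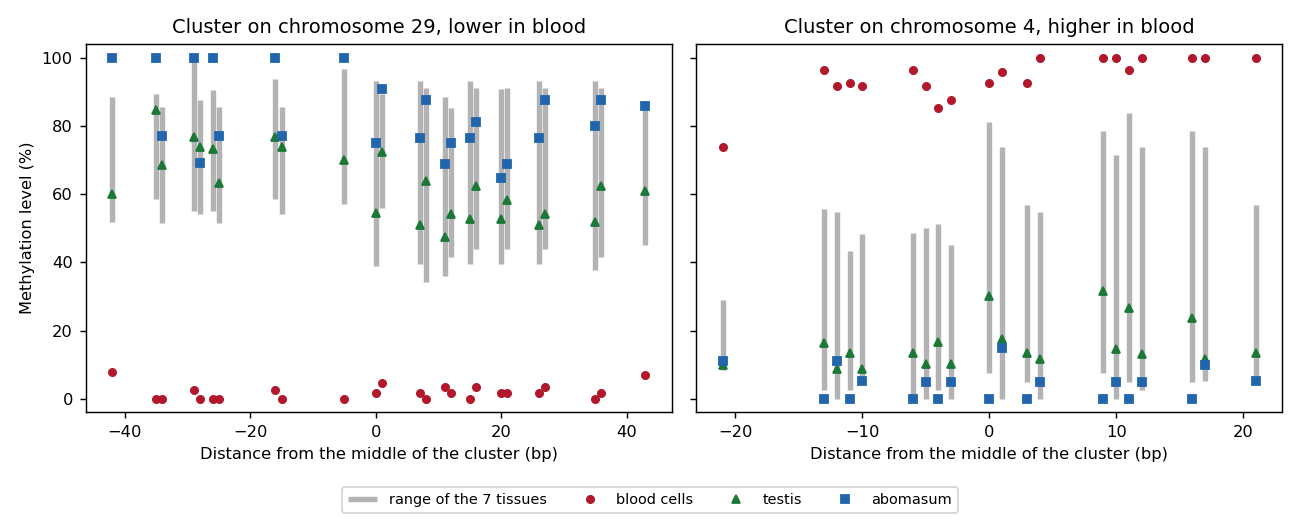
Methylation level (%) at each site of the largest lower cluster on chromosome 29 (left) and of the largest higher cluster on chromosome 4 (right), against the distance in bp from the middle of the cluster. Grey bars span the 7 tissues, red points are blood cells, green triangles testis and blue squares abomasum. On the left blood stays at or below 7.89 % at every site, and on the right it stays at or above 73.9 %, above the grey bars.

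The higher cluster with most CGs, chr19:51542552-51542670, held 19 CGs and 29 sites of 44 read there. Blood had a mean of 59.4 % with single sites from 35.9 to 82.8 %. Uterus had 26.3 %, ileum 16.4 % and skeletal muscle 14.7 %, and the lactating gland, frontal cortex, mammary parenchyma and rumen had 5.26, 5.14, 3.31 and 1.39 %. In this cluster blood was partly methylated while most solid tissues were nearly free of methylation. Testis had 9.38 % and abomasum 3.84 %. The cluster chr11:78270560-78270601, with 8 CGs, had the same form, with 68.2 % in blood, 36.0 % in uterus, 10.8 % in ileum and 0.208 % in frontal cortex.

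On chromosome 4 a pair of clusters 3699 bp apart had high levels in blood at every site. At chr4:69357630-69357672, with 11 CGs, blood had 94.2 %. Skeletal muscle with 52.6 %, uterus with 51.7 % and ileum with 43.1 % were intermediate. The lactating gland had 33.3 % and mammary parenchyma 26.0 %, while frontal cortex with 5.91 %, rumen with 4.03 % and abomasum with 4.60 % were nearly free of methylation. At chr4:69353889-69353931, with 8 CGs, blood had 98.0 %, ileum 71.5 %, skeletal muscle 60.1 % and uterus 58.6 %. The lactating gland had 22.8 %, mammary parenchyma 15.4 %, frontal cortex 10.5 % and rumen 9.54 %. The tissues thus fell in both clusters into a middle group of muscle, uterus and ileum and a low group of cortex and rumen. Testis had 14.4 % in the first of these clusters and 35.1 % in the other. At the last of the 5 largest higher clusters, chr11:1991096-1991194 with 8 CGs, blood had 68.7 %, ileum 36.1 %, uterus 32.2 % and rumen 5.06 %.

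Such neighbours were few. Among clusters with 3 or more CGs, 5 pairs of higher clusters and 0 pairs of lower clusters lay within 100000 bp of each other. Beside the pair on chromosome 4, chr17:64961853-64961895 lay 14801 bp from chr17:64976696-64976735, and chr7:45510034-45510078 lay 52359 bp from chr7:45562437-45562480. The other 2 pairs were on chromosomes 21 and 7, at 55027 and 61956 bp.

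Single sites were taken in each direction as the 10 with the largest gap among those with 20 or more reads in all 9 libraries, at most 1 per cluster. The first lower site, at chr29:44484493 on the forward strand, had 0 methylated of 38 reads in blood (Wilson 95 % interval 0 to 9.18 %). The nearest tissue, uterus, had 58.6 % of 29 reads (40.7 to 74.5 %), and the other tissues of the rule had 75 to 89.3 %. Testis had 84.6 % of 26 reads and abomasum 100 % of 8 reads. At chr11:103931511 blood had 5.56 % of 36 reads, mammary parenchyma 58.6 %, uterus 61.3 % and rumen 100 %. The other 8 lower sites had gaps of 52.7 to 37.5 points, and blood ranged among them from 0 to 40.8 %. At chr29:46571714, in the cluster at which testis was low, testis had 18.9 % of 37 reads and blood 0 % of 41.

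The first higher site, at chr25:3645848 on the reverse strand, had the largest gap of all 893 sites. Blood had 97.0 % of 33 reads (Wilson 95 % interval 84.7 to 99.5 %) and uterus, the nearest tissue, 27.3 % of 44 reads (16.3 to 41.8 %). Ileum had 22.4 %, frontal cortex 22.2 %, skeletal muscle 21.4 %, rumen 17.1 %, mammary parenchyma 2.33 % and the lactating gland 0 %. Testis had 43.1 % of 58 reads and lay above all 7 tissues but below blood. Abomasum had 30 % of 10 reads. The site belongs to a cluster of 7 CGs, chr25:3645848-3645878, in which blood had a mean of 90.4 % and the 7 tissues 4.05 to 31.7 %. The next higher site, chr4:69357640, had a gap of 49.3 points, with 92.6 % in blood and 43.2 % in skeletal muscle. At chr7:45562442 blood had 100 % of 46 reads, ileum 56.2 %, uterus 45.5 % and rumen 0 %. The 9 sites after the first had gaps of 49.3 to 43.5 points.

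Testis had no part in the choice of the sites, and at most of them its level was nearer to the 7 tissues than to blood. The blood level and the 7 levels in this measure are those that chose the sites. A large share thus follows in part from the choice, and the same share was not counted over all sites. The shares below are therefore a description. At the lower sites testis had a median of 80 %, and at 185 of 215 sites (86.0 %, interval 80.8 to 90.0 %) it was nearer to the median of the 7 tissues than to blood. At the higher sites its median was 20.1 %, and it was nearer to the 7 tissues at 572 of 678 (84.4 %, 81.4 to 86.9 %). Sites of a cluster share reads, so that these intervals are too narrow. Blood was tested against testis by Fisher's exact test with adjustment over all 76967 sites, and a call needed q below 0.01 together with 25 points of difference. The test called 145 of the 215 lower sites (67.4 %), against 0.711 % of all sites, and 424 of the 678 higher sites (62.5 %), against 7.54 % of all sites. The blood reads in this test are those that chose the sites, so that many calls follow from the choice. The shares are therefore a description, and nothing is read from their excess over all sites.

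Testis was nearer to blood than to the median of the 7 tissues at a minority of places. This held at most sites of 8 of the 53 lower clusters and 50 of the 281 higher clusters. Being nearer to blood does not show that testis had the level of blood. The lower ones include the clusters on chromosomes 28 and 29 described above, and the other 6 hold 1 CG each. Among the higher ones, testis had 84.0 % at chr19:23624508-23624553, where blood had 98.9 % and the 7 tissues 32.0 to 74.3 %, and 86.0 % at chr17:74180959-74181005, where blood had 97.9 %. At chr4:115057982-115058028, by contrast, testis had 69.0 %, ileum 70.9 % and blood 96.2 %, so that testis lay within the solid tissues. Many of the higher ones hold 1 CG. Testis reached or passed the blood level at 9 higher sites and at 0 lower sites.

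Abomasum, the shallowest library, was read at 162 of the lower and 443 of the higher sites, with a median of 12 and 11 reads. It had a median level of 80 % at the lower sites and 21.7 % at the higher sites. It lay nearer to the median of the 7 tissues than to blood at 157 of 162 (96.9 %, interval 93.0 to 98.7 %) and at 409 of 443 sites (92.3 %, 89.5 to 94.5 %). These shares, too, rest on the levels that chose the sites and are a description. Their intervals are narrower than they should be, since sites of a cluster share reads. Fisher's exact test, adjusted over the 51227 sites read in abomasum, called 70 of the 162 lower sites (43.2 %), against 0.377 % of all sites, and 169 of the 443 higher sites (38.1 %), against 1.24 % of all sites. These calls use the same chosen blood reads and are a description like those against testis. At this depth a site without a call does not show equal levels. The exceptions were few. Abomasum was nearer to blood in 1 of 33 lower clusters, and in 14 of 180 higher clusters, among them chr25:42195050-42195083, where it had 61.2 %, blood 93.1 % and the 7 tissues 16.6 to 63.1 %.

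The cytosine on the opposite strand of the same CG is measured by reads that the rule did not use at the member, although they come from the same libraries and give no biological replicate. It was read in all 9 libraries at 135 of the 215 lower sites. Blood was below the summed reads of the 7 tissues at the opposite cytosine in 135 of 135 cases. The median difference was -52.3 points at the members and -49.1 points at the opposite cytosines, against 0 over all 49778 cytosines tested. Of the 135 opposite cytosines, 98 met the rule themselves and were thus chosen by their own levels, and the 135 cases stand for 86 CGs. The 37 that did not meet the rule lie at a CG of their own each. Among these 37, blood was lower at all 37, and Fisher's exact test called it lower at 15 (40.5 %, interval 26.3 to 56.5 %), against 0.538 % of all cytosines tested. Their median level was 50 % in blood, 68.6 % in uterus and 88 % in rumen. With the chosen ones counted in, 110 of the 135 were called (81.5 %). The share of 0.538 % is not matched for level. Over all 76967 sites the median level of the 7 tissues had a median of 1.47 %, so that many could not be called lower. The size of the excess is therefore not read.

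At 423 of the 678 higher sites the opposite cytosine was read. Blood was higher there in 410 of 423 cases (96.9 %), with a median difference of 44.7 points at the members and 38.5 points at the opposite cytosines. These cases stand for 340 CGs, and 166 of the opposite cytosines met the rule themselves. Among the 257 that did not, blood was higher at 244, and Fisher's exact test called it higher at 122 (47.5 %, interval 41.4 to 53.6 %), against 2.82 % of all cytosines tested. Their median level was 52.4 % in blood, 35.3 % in ileum, 34.1 % in uterus and 6.90 % in rumen. With the chosen ones counted in, 285 of the 423 were called (67.4 %). The share of 2.82 % is not matched for level either. Neighbouring CGs share reads, so that the intervals are too narrow. The order of the tissues was thus like that at the members, with ileum and uterus nearest to blood and rumen farthest. The difference was under 5 points or of the other sign at 23 of 423 opposite cytosines of higher sites and at 2 of 135 of lower sites, and these shares were not compared by a test. Among them is the partner of chr11:88168548, one of the 10 sites with the largest gap. Blood had 72.7 % of 33 reads at the member, whereas the opposite cytosine had 11.1 % of 9 reads in blood and 10.5 % in the 7 tissues (q = 1, Fisher's exact test).

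**Figure D4:**
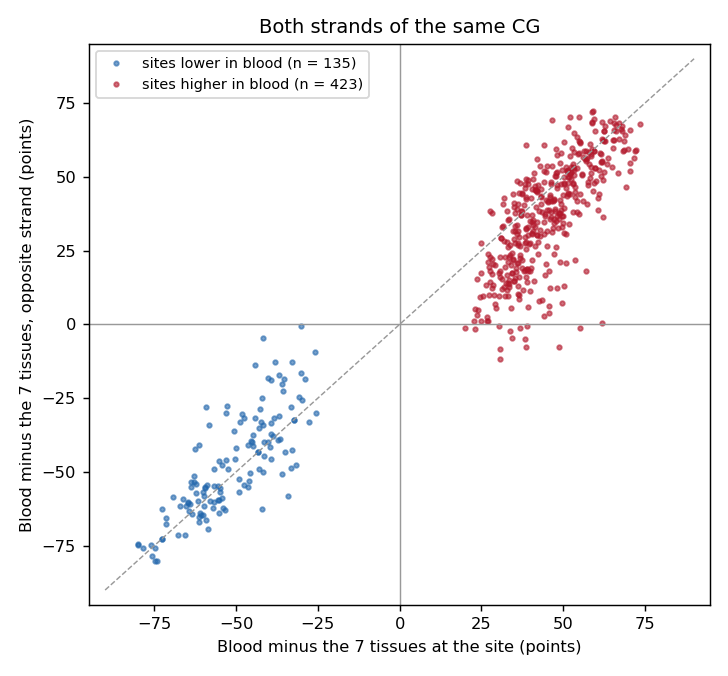
Blood minus the summed reads of the 7 tissues, in points of methylation level, at the member (x axis) and at the cytosine on the opposite strand of the same CG (y axis), for 135 lower sites (blue) and 423 higher sites (red). The dashed line marks equal differences. All blue points lie below 0 on the y axis, and 410 of the 423 red points lie above it.

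In the named clusters most opposite cytosines were members as well. At chr29:44484486-44484571, at chr11:101128503-101128549 and on chromosome 28, 0 of the 22, 10 and 14 opposite cytosines were non-members. On chromosome 22 there was 1, which was called, and on chromosome 23 there were 4, of which 0 were called. Of the non-members in the higher clusters, 6 of 9 were called on chromosome 19, 2 of 2 and 4 of 4 in the pair on chromosome 4, 1 of 1 at chr11:78270560-78270601 and 1 of 2 at chr11:1991096-1991194, beside the 0.538 and 2.82 % of all cytosines given above.

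The lower sites were unevenly placed along the chromosomes. Of the 215 sites, 143 (66.5 %) lay in the last 10 % of their chromosome, measured to the last cytosine read, against 29.4 % of all 76967 sites. Among the 21660 sites that could have met the rule, with all 7 tissues at 20 % or more, the share was 42.0 %. Counted over clusters it was 36 of 53 (67.9 %). At the higher sites it was 222 of 678 (32.7 %), against 24.1 % of the 57408 sites with all 7 tissues at 80 % or less, and 39.1 % of clusters. Cattle autosomes have the centromere at one end, and coordinates start there, so that the last part is the far arm end. Chromosome 29 alone held 44 lower sites (20.5 %, against 3.08 % of all sites) in 6 clusters and chromosome 22 held 35 in 7 clusters. Chromosome 19 held 86 higher sites (12.7 %, against 5.53 % of all sites). These shares rest on clustered sites and were not tested.

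**Figure D5:**
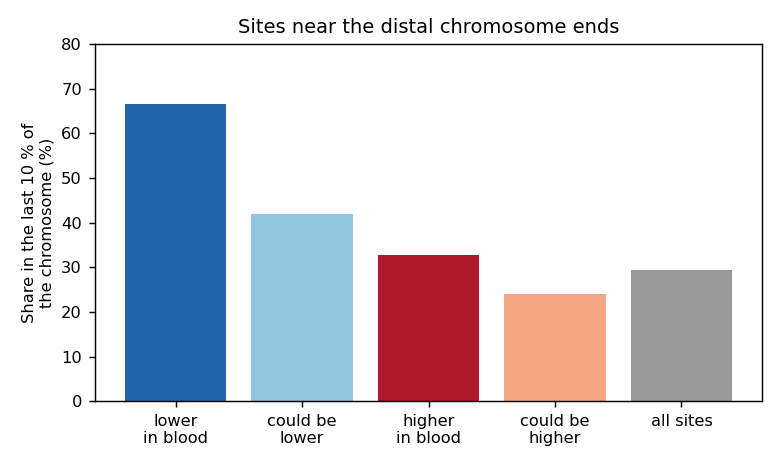
Share (%) of sites in the last 10 % of their chromosome, for the 215 lower sites, the sites that could have been lower, the 678 higher sites, the sites that could have been higher, and all 76967 sites. The bar of the lower sites stands at 66.5 %, the highest of the 5.

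The sequence around the sites was described as well. The CG lay inside the cut site CCGG at 12.6 % of the lower, 16.8 % of the higher and 14.8 % of all sites. It did so at 18.4 % of the sites that could have been lower and 13.4 % of those that could have been higher. The median number of other CGs read within 50 bp was 6 at the lower, 7 at the higher and 8 at all sites. That number was 5 at the sites that could have been lower and 8 at those that could have been higher. The 7 tissues themselves differed widely at the members: the range from the lowest to the highest of them had a median of 34.8 points at the lower and 37.1 points at the higher sites, against 6.67 points over all sites. It was at least 20 points at 184 of the 215 and 542 of the 678 sites, compared with 22.1 % of all sites. Among the sites that could have been lower the share was 52.9 %, and among those that could have been higher 12.5 %. The median level of the 7 tissues lay between 20 and 80 % at 65.6 % of the lower and 55.2 % of the higher sites, against 32.5 and 7.71 % of the sites that could have been lower or higher. Counting error is largest at such levels, and its part in the range was not tested. The study also listed CG islands that differed among these tissues. Of the lower sites 103 (47.9 %) and of the higher sites 383 (56.5 %) lay in them, against 15.2 % of all sites, 37.6 % of those that could have been lower and 8.26 % of those that could have been higher. They held a part of 16 of the 53 lower and 114 of the 281 higher clusters. That list was chosen on these samples, so that the overlap is not independent of the levels.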

How the data were processed

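Per the labels and the study's methods, the authors trimmed the RRBS reads and aligned them to UMD3.1 with a pipeline built on SOAPaligner, using unique matches. The deposited files list cytosines covered by 8 reads or more, on each strand. They give the coverage as an unnormalized count, and the authors also deposited a fraction, the methylated share of that count. A p-value and its FDR, deposited beside them, were not used here. PCR copies are not marked, and a C-to-T difference in an animal's genome would read as an unmethylated cytosine.

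Multiplying level and count gave a whole number at every cytosine (tolerance 1e-06), taken as the methylated reads. Sites were compared by Fisher's exact test with Benjamini-Hochberg adjustment over all sites tested, calling q below 0.01 with 25 points of difference, the study's cutoffs. With 1 library per tissue, such tests compare libraries. Wilson 95 % intervals express counting error alone, and those over sites take the sites as independent, which sites of a cluster are not. Clusters join sites of 1 direction at most 200 bp apart. Named by rule in each direction were the 5 clusters with most CGs, and the 10 sites of largest gap having 20 reads or more in 9 libraries, at most 1 per cluster. Other places named, such as exceptions, were chosen after their values were seen. The members, lists and tests were chosen with earlier results of these data known. Reference sequence was joined from the strings of 5 bases deposited with each cytosine. Alternatives were other coverage minimums, gaps, adjustments and cutoffs, all 10 libraries, thinned reads, summed strands, a test against each tissue, and leaving out a tissue or the deepest sites. The scripts ran in Python 3.11.15 (NumPy 2.4.6, pandas 2.3.3, SciPy 1.17.1, matplotlib 3.10.9, Numba 0.67.0) and were tested on simulated data. Positions of the study's list of differing CG islands were taken from its supplement. Genes, repeats and other CG islands were not analysed here.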

Additional observations from a re-analysis of the deposited data

How the results depend on the processing

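Of 52 values under alternatives, 32 stayed within 1.5 times the count or within the interval of the share, and 20 moved. The number of lower and higher sites was 107 and 339 with at least 20 reads, 122 and 199 with a gap of 30 points, and 64 and 74 when Fisher's exact test against each of the 7 tissues was required as well. The 64 lay in 12 clusters and the 74 in 28. Higher sites numbered 443 of 51227 with 8 reads in all 10 libraries, and 440 of 52078 CGs with both strands summed. The main count was 678 of 76967 sites. Fewer sites were tested under these settings and with at least 20 reads. A fall in such a count is thus not by itself a fall in the share. Leaving out 1 of the 7 tissues gave 222 to 269 lower and 700 to 1208 higher sites, the 1208 without ileum. With reads thinned to the lowest coverage at a site there were 235 and 895. With a gap of 30 points testis was nearer to the 7 tissues at 87.9 % of higher sites, and abomasum at 100 % of lower and 95.1 % of higher sites. The opposite cytosine, those that met the rule themselves included, was called at 91.2 and 78.7 % of lower and higher sites with at least 20 reads, 91.03 and 80.8 % with a gap of 30 points, 65.2 and 47.3 % with a difference of 40 points, and 59.3 and 47.8 % under Bonferroni adjustment. No paired analysis was possible because each tissue has 1 library. Limits are the single libraries, the differing sexes and stages, and the animals, which are not stated for each library. Depth is another limit, since 47 lower and 309 higher sites had gaps under 25 points and sites of a cluster share reads.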

Other observations

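Outside the autosomes the same rule found few sites among the few that were read. On the X chromosome 1372 CG sites had the reads that the rule needs, of which 0 were lower and 7 (0.510 %) higher in blood. On sequence not placed on a chromosome there were 0 lower and 5 higher of 823 (0.608 %). The autosomal shares were 0.279 % lower and 0.881 % higher, and the shares were not compared by a test.

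Cytosines outside the CG context rarely met the same rule. Among 59505 CHG cytosines 2 were lower and 4 higher in blood, and among 87572 CHH cytosines 0 were lower and 9 higher. Inside the lower clusters with 3 or more CGs, 374 cytosines of these contexts had a mean level of 0.715 % in blood and 0.725 to 1.11 % in the 7 tissues. Inside the higher clusters, 1045 such cytosines had 0.810 % in blood and 0.493 to 0.711 % in the 7 tissues. The mean levels of blood and the 7 tissues at these cytosines thus differed by under 1 point. At levels this low blood had no room to lie 20 points below the tissues. The paper reports incomplete bisulfite conversion and advises caution with levels outside the CG context. In its summary, ileum and blood had the lowest conversion rates of the 10 libraries. The part of unconverted cytosines in these means was not tested. The gaps of at least 20 points at the CGs of the same clusters are therefore given beside them as a description. Nothing about context is read from the contrast.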
